A study of Mus musculus with 200 samples.

Results

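The 6 genes with a small, opposite allele bias in the reciprocal F1 crosses, Kifc1, Ccnb2, Vdac2, Rpl7l1, Agrn and 2810025M15Rik, are described here out of 22033 genes in the deposited tables. They were selected on the F1 allele votes themselves, so their F1 allele fractions are given as a description and carry no test of their own. The question they pose is whether the bias follows the parent of origin, as in an imprinted gene, and the independent data for it are the N2 embryos, which the choice did not use.

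The study sequenced messenger RNA from single mouse embryos at E11.5 by 3SEQ, a method that reads the 3′ ends of polyadenylated transcripts. The 16 F1 embryos came from B6 x Cast matings (C57BL/6J mother, CastEi/J father; 8 embryos from 2 litters) and from the reverse Cast x B6 matings (8 embryos from 2 litters). The number of somites, a measure of developmental stage, was recorded for most of them. It was 58 and 63 in B6 x Cast litter 3 and 48 to 50 in litter 5. In Cast x B6 it was 41 to 43 in litter 1 and 46 to 48 in litter 2. Stage and cross thus barely overlap in F1 and cannot be told apart there. The 154 N2 embryos came from backcrosses to C57BL/6J, named mother first: B6 x F1 (89 embryos, 17 litters) and F1 x B6 (65 embryos, 12 litters). The F1 animals used as mothers were bred from B6 females and Cast males, so N2 embryos share B6 mitochondria. Embryos were taken whole, without membranes or placenta. An N2 embryo is B6/B6 or B6/Cast at each autosomal gene. In a heterozygous B6 x F1 embryo the B6 allele is maternal and in a heterozygous F1 x B6 embryo it is paternal, so the N2 pair repeats the parental contrast of the F1 pair. B6 and Cast are inbred strains of different mouse subspecies, so many transcripts hold a single-nucleotide difference that tells the alleles apart. A read over several such sites gives each a fractional vote for B6 or Cast, and the B6 allele fraction (BAF) is the share of B6 votes among B6 and Cast votes, with 0.5 for equal alleles. Levels are given as RPM, the reads of a gene per 1000000 reads on genes.

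Genomic imprinting silences one parental copy of a gene through marks laid down in the germ line. In reciprocal crosses it shows as a BAF that changes sides when the parents are swapped, whereas a regulatory difference between the strains keeps the same strain higher in both crosses. The genes differ in function. Kifc1 encodes a minus-end-directed kinesin of the mitotic spindle, and Ccnb2 encodes cyclin B2, a partner of Cdk1 at mitotic entry. Vdac2 encodes a channel of the outer mitochondrial membrane. Rpl7l1 encodes a protein related to ribosomal protein L7. Agrn encodes agrin, a heparan sulfate proteoglycan that organizes the neuromuscular junction through Lrp4 and MuSK. 2810025M15Rik is an uncharacterized transcript that the GENCODE annotation used here lists as protein coding.

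3SEQ reads come mostly from the transcript end, although the tables do not give the positions of reads or polymorphic sites. A search of the last 60 bases of the longest coding transcript found the polyadenylation hexamer AATAAA in all 6 genes. The stretch around the hexamer nearest the end is shown, with the hexamer in capitals. It is read 5′ to 3′ on the transcript strand from the mm9 (NCBIM37) genome. The hexamer ends 5 bases before the annotated end in Rpl7l1, whose stretch is shorter, and 15 to 21 bases before it in the others. Whether these hexamers are used was not tested.
Kifc1: taatcaactataAATAAAgaataatctgtt
Ccnb2: gtattgaaggaaAATAAAgctattgatcta
Vdac2: ctttgagattacAATAAAatacaaggatac
Rpl7l1: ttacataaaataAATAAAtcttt
Agrn: caaataccatgaAATAAAgtctgaaaacct
2810025M15Rik: atgaaaggttgtAATAAAgtgttggttgag
In mm9 these stretches lie at chr17:34012617-34012646 on the minus strand for Kifc1, chr9:70255500-70255529 on the minus strand for Ccnb2, chr14:22665063-22665092 on the plus strand for Vdac2, chr17:46910856-46910878 on the minus strand for Rpl7l1, chr4:155539404-155539433 on the minus strand for Agrn and chr1:159350334-159350363 on the plus strand for 2810025M15Rik. Each stretch is unbroken in the genome, and its place relative to the borders of exons and coding sequence was not tested.

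The gene bodies of Kifc1 (chr17:34012611-34027606), Ccnb2 (chr9:70255496-70269361) and Agrn (chr4:155539399-155571536) overlap no other GENCODE gene. Vdac2 (chr14:22650491-22665101) overlaps Comtd1, Rpl7l1 (chr17:46910856-46919605) overlaps Gm16736 and 2810025M15Rik (chr1:159342483-159350366) overlaps Rasal2, each on the opposite strand. Near-identical sequence elsewhere in mm9, counted from 300 covered bases at 90% identity or more, was found for every gene but Agrn. Kifc1 had 3 such places, among them Kifc5b elsewhere on the same chromosome, which matched 72.1% of the transcript at 98.8% identity. Of the last 500 bases of Kifc1, Kifc5b covered 147, the place on chromosome 9 342 and the one on chromosome 10, at Kifc5c-ps, 0. Ccnb2 had 3 places, all on chromosome 14 and each holding 326 of the last 500 bases at 93.9% identity. Vdac2 had 1 place, at Gm15710 on chromosome 5 (74.3% covered, 95.5% identity). Rpl7l1 had 2 places outside its last 500 bases, and 2810025M15Rik had 1 on its own chromosome that covered 377 of its last 500 bases at 94.6% identity. Counted from 100 aligned bases at 90% identity, without the minimum of 300 covered bases, Rpl7l1 had 26528 places. The counts of the other genes were the same under both rules. Which part of the Rpl7l1 transcript these shorter matches cover was not tested. The authors discarded reads whose second-best alignment was nearly as good as the best one, and how many reads of these 5 genes were lost or kept that way was not tested, so their values are uncertain to that extent.

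Total reads on genes ranged from 15703888 to 38234229 in F1 embryos and from 245220 to 5370322 in N2 embryos, so single N2 embryos carry more counting error than F1 embryos. N2 embryos were sequenced in 14 lanes on 2 flowcells, and 13 of the lanes held 1 cross only, so lane and mother can barely be told apart. The summed level of 3 liver genes, 3 blood genes, 3 heart genes, 3 neural genes and 3 limb genes was above 35 RPM in every embryo. The 8 trophoblast markers summed to 5.15 RPM at most, and the 2 decidua markers stayed at 0 in most embryos but reached 20.5 RPM in 1 B6 x F1 embryo. Trimming differed between the generations, since the authors cut F1 reads to a common length and N2 reads only at poly(A) stretches.

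In the F1 embryos the maternal allele was higher in both crosses for Kifc1, Ccnb2, Vdac2 and 2810025M15Rik, and the paternal allele for Rpl7l1 and Agrn. The values that chose the genes were pooled votes in each cross, read against 0.5 by a binomial test with Bonferroni adjustment, and 47 of 11608 autosomal genes (0.405%) passed in both crosses with opposite alleles. The 6 genes held the 6 smallest differences among these 47. The pooled BAF of Kifc1 was 0.598 in B6 x Cast and 0.316 in Cast x B6, a difference of 0.28 between crosses, and Vdac2 had 0.584 and 0.419. The other 4 were closer to 0.5 in both crosses: 2810025M15Rik at 0.536 and 0.477, Ccnb2 at 0.5263 and 0.477, Rpl7l1 at 0.465 and 0.531, and Agrn at 0.477 and 0.515. Just inside the threshold stood Agrn, at an adjusted p of 0.00478 in its weaker cross, and the imprinted gene Zrsr1, at 0.00554. Just outside it stood Klf14, at 0.0221. The median absolute difference between crosses over all 11608 genes was 0.03.

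**Figure D1:**
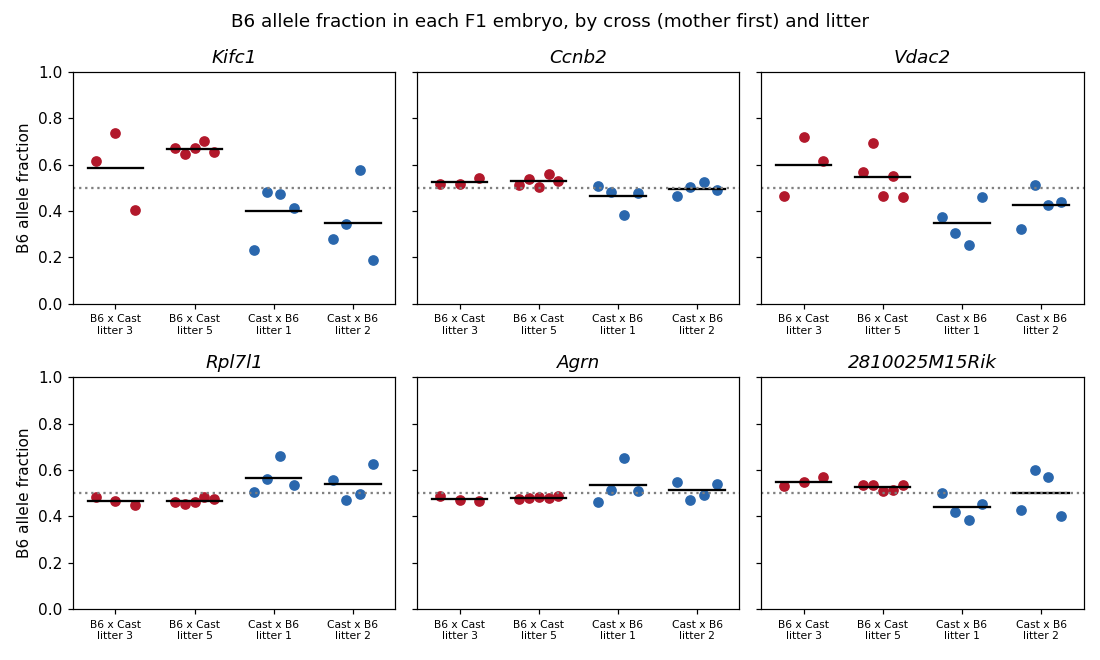
B6 allele fraction (vertical axis, 0 to 1) of each gene in every F1 embryo, with the 4 litters side by side, points for embryos and bars for litter means. The Cast x B6 embryos (blue) spread more widely than the B6 x Cast embryos (red) for Ccnb2, Rpl7l1, Agrn and 2810025M15Rik, and the crosses overlap in every panel.

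Single embryos did not separate by cross for any of the 6 genes. Kifc1 BAF ran from 0.403 (median 0.662) to 0.737 in the 8 B6 x Cast embryos and from 0.191 (median 0.379) to 0.577 in the 8 Cast x B6 embryos. The lowest B6 x Cast embryo, from litter 3, stood apart from the others of its cross, and within litter 5 the 5 embryos lay between 0.645 and 0.700. Vdac2 ran from 0.461 (median 0.560) to 0.719 in B6 x Cast and from 0.253 (median 0.401) to 0.512 in Cast x B6. In 5 of 8 B6 x Cast embryos and 1 of 8 Cast x B6 embryos the B6 allele of Vdac2 was above 0.5. The 2 genes had few votes, 1969 for Kifc1 and 2423 for Vdac2 over the 16 embryos. Of the 974 Kifc1 votes in Cast x B6, embryo 1 of litter 1 gave 425 (BAF 0.234) and embryo 3 of litter 2 gave 358 (BAF 0.344). The pooled Kifc1 BAF of 0.316 in that cross thus rests mostly on these 2 embryos. With each embryo counted equally, the mean Kifc1 BAF was 0.374 in Cast x B6 and 0.637 in B6 x Cast.

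Ccnb2 was tight in B6 x Cast, from 0.504 (median 0.523) to 0.559, and wider in Cast x B6, from 0.384 (median 0.487) to 0.523. All 8 B6 x Cast embryos were above 0.5, as were 3 of the 8 Cast x B6 embryos. Rpl7l1 lay between 0.450 (median 0.464) and 0.485 in B6 x Cast, with every embryo under 0.5. In Cast x B6 it ran from 0.472 (median 0.545) to 0.661, with 2 of 8 embryos under 0.5.

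Agrn, with 74918 votes the best-covered of the 6, ran only from 0.465 (median 0.478) to 0.488 in B6 x Cast but from 0.463 (median 0.511) to 0.651 in Cast x B6. Its highest value, 0.651, was in an embryo of Cast x B6 litter 1, and the 7 others of that cross lay between 0.463 and 0.549. 2810025M15Rik ran from 0.509 (median 0.535) to 0.569 in B6 x Cast and from 0.383 (median 0.440) to 0.598 in Cast x B6. Its 4 embryos of Cast x B6 litter 1 were all under 0.5, whereas litter 2 held both the highest value and 0.401. The litter means of this gene in Cast x B6 were 0.438 ± 0.050 (SD, n = 4) and 0.499 ± 0.099 (SD, n = 4).

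The wider spread in Cast x B6 was not particular to these genes. Over the autosomal genes with at least 100 votes in every F1 embryo, 5.78% to 14.1% of genes in a Cast x B6 embryo lay more than 3 counting standard deviations from the BAF of their cross, against 2.11% to 6.25% in a B6 x Cast embryo. The median BAF over genes stayed between 0.4971 and 0.5001 in all 16 embryos. Within crosses the variance of the 6 genes was 5.90 to 21.9 times the binomial one, where genes with a similar number of votes had medians of 1.45 to 2.80. Library and cross cannot be told apart in these spreads, since each litter belongs to 1 cross. The sequencing runs differed as well. Cast x B6 litter 2 is labelled with runs hs1 and hs2, and the other litters with runs gaIIx and hs1. Whether the runs bear on the spread was not tested.

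Heterozygous N2 embryos gave a different picture. None of the 6 genes met the same binomial rule in N2, where 33 of 9227 genes did (0.358%): at 0.01 none was called in both crosses with opposite alleles, and Kifc1 and 2810025M15Rik were called in both with the same allele, Cast, higher. With Benjamini-Hochberg in place of Bonferroni adjustment 40 genes were called (0.434%) and 1 of the 6 was among them, Agrn, the only one whose pooled BAF lay on opposite sides of 0.5. A quasi-binomial model over embryos, which widens the error to the spread between embryos, tested the difference in BAF between the 2 backcrosses (F test, Benjamini-Hochberg over 9215 genes). It called Agrn alone of the 6, beside 87 genes in all (0.944%), and in the direction opposite to the F1 difference.

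The pooled N2 BAF of Kifc1 was 0.260 in B6 x F1 (44 embryos) and 0.245 in F1 x B6 (24 embryos). The difference of 0.015 ± 0.025 (SE; 95% interval -0.036 to 0.066, adjusted p = 0.919) stands beside a selected F1 difference of 0.28. Among embryos with at least 10 votes, Kifc1 ran from 0.0434 (median 0.242) to 0.699 in 24 B6 x F1 embryos and from 0.154 (median 0.250) to 0.368 in 21 F1 x B6 embryos. All but 2 of these 45 embryos were under 0.5, so the Cast allele was the higher one with either mother. No litter with 20 votes or more had a pooled BAF above 0.429.

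2810025M15Rik had a pooled BAF of 0.373 in B6 x F1 (35 embryos) and 0.392 in F1 x B6 (34 embryos). The difference was -0.019 ± 0.013 (SE; 95% interval -0.045 to 0.0072, adjusted p = 0.711), beside a selected F1 difference of 0.059. None of its 66 embryos with at least 10 votes was above 0.5, and they ran from 0.167 (median 0.376) to 0.487 in B6 x F1 and from 0.262 (median 0.383) to 0.498 in F1 x B6. In F1 embryos the same gene was at 0.536 and 0.477.

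Rpl7l1 had a pooled BAF of 0.482 in B6 x F1 (47 embryos) and 0.480 in F1 x B6 (22 embryos). Their difference was 0.0026 ± 0.015 (SE; 95% interval -0.027 to 0.032, adjusted p = 0.979), against -0.066 in F1. Its embryos ran from 0.387 (median 0.491) to 0.711 and from 0.433 (median 0.491) to 0.590.

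Vdac2 had 0.518 in B6 x F1 (44 embryos) and 0.561 in F1 x B6 (34 embryos), so the paternal B6 allele was read at the higher share, where F1 had the maternal one higher. The difference of -0.043 ± 0.021 (SE; 95% interval -0.085 to -0.0010) did not pass over all genes (adjusted p = 0.531). Embryos with at least 10 votes ran from 0.377 (median 0.524) to 0.655 in B6 x F1 and from 0.362 (median 0.592) to 0.882 in F1 x B6, and the B6 x F1 range lies within the F1 x B6 range.

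Ccnb2 had 0.436 in B6 x F1 (53 embryos) and 0.494 in F1 x B6 (33 embryos). The difference of -0.058 ± 0.021 (SE; 95% interval -0.100 to -0.016) has the sign opposite to the F1 difference of 0.049 and did not pass over all genes (adjusted p = 0.240). It did pass with somite number as a covariate (-0.075, adjusted p = 0.0479) and without lane C (-0.080, adjusted p = 0.0321) or lane F (-0.090, adjusted p = 0.00533). It did not pass with votes summed by litter (adjusted p = 0.796) or by lane (adjusted p = 0.993). Nor did it within flowcell 1 (-0.069, adjusted p = 0.448) or flowcell 2 (-0.036, adjusted p = 0.863). Embryos ran from 0.0891 (median 0.421) to 0.682 in B6 x F1 and from 0.309 (median 0.504) to 0.676 in F1 x B6. Lane sums of Ccnb2 ran from 0.318 to 0.534 in B6 x F1 and from 0.416 to 0.566 in F1 x B6, which is wider than the difference between crosses.

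**Figure D2:**
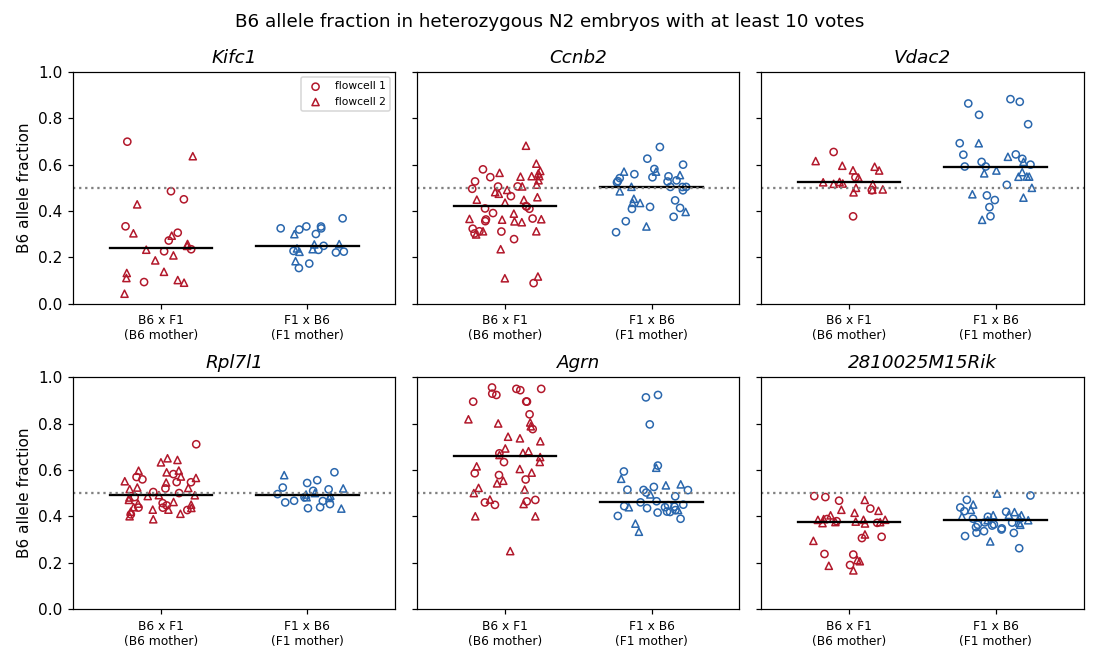
B6 allele fraction (vertical axis) of heterozygous N2 embryos with at least 10 votes, by backcross, with circles for flowcell 1, triangles for flowcell 2 and bars for medians. All 2810025M15Rik embryos and all but 2 Kifc1 embryos lie under 0.5, Rpl7l1 lies around 0.49 with both, and Agrn spreads from 0.250 to 0.955 in B6 x F1.

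Agrn had a pooled BAF of 0.605 in B6 x F1 (51 embryos) and 0.477 in F1 x B6 (35 embryos), a difference of 0.13 ± 0.027 (SE; 95% interval 0.074 to 0.182, adjusted p = 0.00250). In F1 the difference was -0.038, so the maternal allele was the higher one in N2 and the paternal one in F1. Embryos with at least 10 votes ran from 0.250 (median 0.660) to 0.955 in B6 x F1 and from 0.333 (median 0.462) to 0.923 in F1 x B6; 36 of 46 and 14 of 34 were above 0.5. The call was lost when votes were summed by litter (adjusted p = 0.469) or by lane (adjusted p = 0.993), within flowcell 1 (0.13, adjusted p = 0.183) and flowcell 2 (0.12, adjusted p = 0.347), and without lane B (0.098, adjusted p = 0.0831) or lane D (0.11, adjusted p = 0.0630), and with Bonferroni adjustment (adjusted p = 0.119). Lane B holds B6 x F1 embryos only, lane D F1 x B6 embryos only.

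The BAF of Agrn moved with its level. In the 46 B6 x F1 embryos Pearson's r between BAF and log2(RPM + 1) was -0.88 and Spearman's rho -0.90, each with a permutation p of 1e-05, the smallest that 100000 resamples can give. In the 34 F1 x B6 embryos r was -0.86 (permutation p = 1e-05) and rho -0.40 (permutation p = 0.0194, adjusted p = 0.0585). Without the 2 embryos farthest from the median level r was -0.87 and -0.76, and with lanes regressed out rho was -0.78 and -0.25. BAF and level come from the same libraries and partly from the same reads. In embryos under 50 RPM the pooled BAF of Agrn was 0.886 in B6 x F1 (17 embryos with votes) and 0.789 in F1 x B6 (3 embryos). At 50 to 100 RPM it was 0.677 (15 embryos) and 0.667 (3 embryos), at 100 to 200 RPM 0.568 (9 embryos) and 0.562 (1 embryo), and from 200 RPM on 0.483 (10 embryos) and 0.454 (28 embryos). With log2(RPM + 1) as a covariate the difference between crosses was 0.011 (adjusted p = 0.914); both this covariate and the level classes were chosen after the values were seen. In F1 the embryo with the highest Agrn BAF, 0.651, also had the lowest Agrn level, 116 RPM, and B6 x Cast embryos had 289 to 468 RPM.

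**Figure D3:**
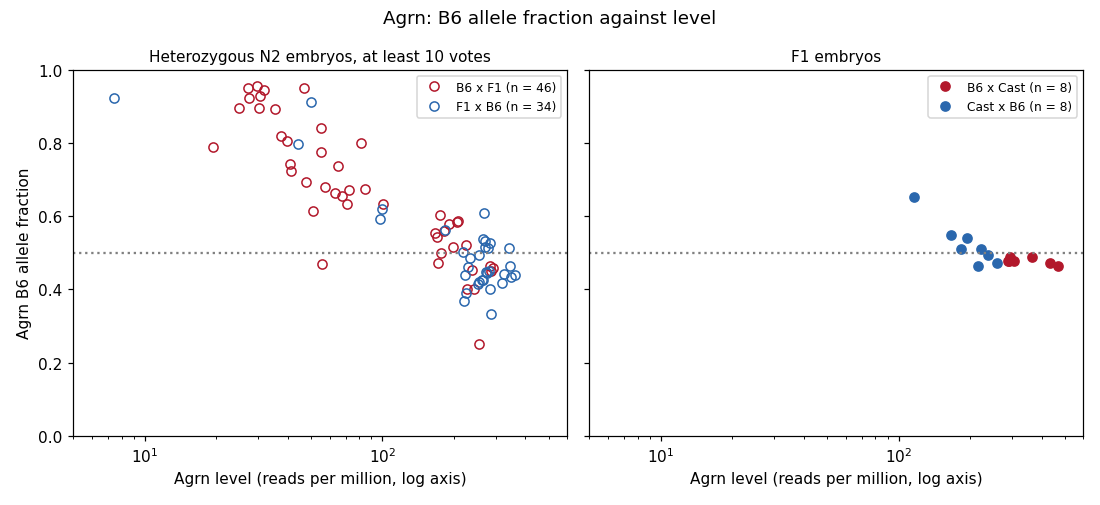
B6 allele fraction of Agrn (vertical axis) against its level in RPM (log axis) in heterozygous N2 embryos with at least 10 votes (left) and F1 embryos (right), 1 point per embryo. The pooled fraction goes from 0.886 (B6 x F1) and 0.789 (F1 x B6) under 50 RPM to 0.483 and 0.454 from 200 RPM on.

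The same relation was computed for all 6 genes in each backcross, 12 in all. Besides Agrn it passed for 2810025M15Rik in F1 x B6, with the opposite sign: r was 0.51 (permutation p = 0.00245, adjusted p = 0.0098), rho 0.48 (permutation p = 0.00499, adjusted p = 0.0299), r 0.41 without the 2 outermost embryos and rho 0.39 within lanes, over 34 embryos. In B6 x F1 its r was 0.066 over 32 embryos (permutation p = 0.720). The remaining 8 relations had adjusted p from 0.0585 to 0.960 by rho.

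**Figure D4:**
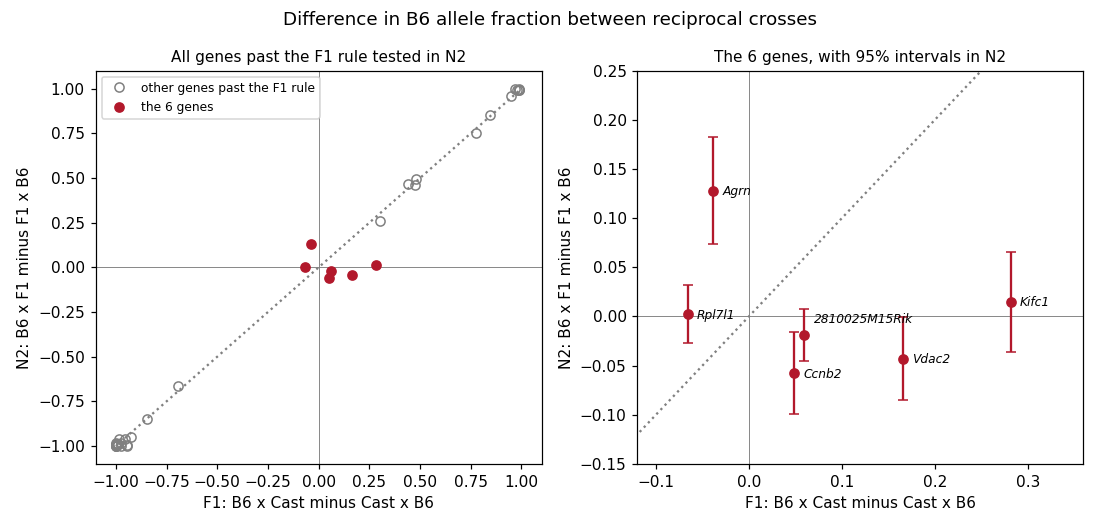
Difference in B6 allele fraction between reciprocal crosses in N2 (vertical axis) against F1 (horizontal axis) for the 38 genes past the F1 rule that were tested in N2 (left) and for the 6 genes with 95% intervals (right); the dotted line marks equal differences. The 32 other genes lie near the line, the 6 genes (red) do not, and only Kifc1 and Rpl7l1 have intervals that include 0 well inside them, with 2810025M15Rik reaching just past 0.

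The other genes past the F1 rule behaved differently in the same N2 embryos. Of the 41 others, 32 had enough N2 votes, and the quasi-binomial test called all 32 in the F1 direction. Their absolute differences ran from 0.301 to 1.00 in F1 and from 0.259 to 1.00 in N2, with medians of 0.978 and 0.990. For the 6 genes these medians were 0.062 and 0.031, and the median over all 9215 genes in N2 was 0.031. Igf2, an imprinted reference gene, had a BAF of 0.01001 and 0.997 in F1 and of 0.00643 and 0.994 in N2. H13, a partly biased one, had 0.663 and 0.225 in F1 and 0.699 and 0.236 in N2. On the imprinted list 24 of 32 genes were tested and all 24 were called; on the mitotic list 21 of 22 were tested and none was called, nor was any of 4 tested paralogs, 4 tested agrin pathway genes or 9 tested ribosome biogenesis genes. At the 0.944% called over all genes, lists of this size would hold few or no calls. These lists were drawn up with earlier results of these data known.

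Imprinted genes often lie in clusters, so the 5 tested genes on each side of each gene were read as well. Of the 59 neighbours 1 passed in N2, Sdf4 beside Agrn, with a difference of -0.054 (adjusted p = 0.0102) whose sign is opposite to that of Agrn; 0.944% of all genes passed. None of the neighbours met the F1 rule. The neighbours of Kifc1 had N2 differences from -0.095 to 0.13 and those of Rpl7l1 from -0.063 to 0.17.

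A test of the mean logit of both backcrosses against 0 asked instead whether 1 strain's allele was higher on average over them. The test does not ask whether the same allele was higher in each backcross. It called all 6 genes, where 51.0% of all genes were called. The mean BAF was 0.253 for Kifc1 (adjusted p = 8.51e-25) and 0.383 for 2810025M15Rik (adjusted p = 2.83e-25), where Cast was higher. The mean was 0.465 for Ccnb2 (adjusted p = 0.00349) and 0.481 for Rpl7l1 (adjusted p = 0.0248), both with Cast higher. For Vdac2 (adjusted p = 9.94e-04) and Agrn (adjusted p = 0.00929) it was 0.540 and 0.542, with B6 higher on average. The Agrn mean joins 0.605 in B6 x F1 and 0.477 in F1 x B6, which lie on opposite sides of 0.5. Within single flowcells only Kifc1 and 2810025M15Rik passed in both; Vdac2 lost the call in flowcell 1 (adjusted p = 0.306), Ccnb2 in flowcell 2 (adjusted p = 0.204), Rpl7l1 in flowcell 2 (adjusted p = 0.635) and Agrn in flowcell 1 (adjusted p = 0.0973) and flowcell 2 (adjusted p = 0.0754). Agrn also lost it with votes summed by litter (adjusted p = 0.113).

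The spread among embryos of 1 backcross was 10.6 times the binomial variance for Agrn and 4.84 times for Ccnb2. Genes with a similar number of N2 votes had medians of 1.49 and 1.44, and 98.2% and 93.1% of them were below these values. The other 4 genes had 1.32 to 2.44 times the binomial variance. Lanes held 53.9% of the variance of BAF among embryos with at least 10 votes for Agrn, over 15 lane and cross combinations and 80 embryos, and 49.7% for Ccnb2. The share was 54.9% for Kifc1 (14 combinations, 45 embryos), 52.5% for Vdac2 (11 combinations, 50 embryos), 32.4% for 2810025M15Rik and 26.7% for Rpl7l1. These shares are not adjusted for the number of embryos per lane, which differs among the genes, so they do not rank the genes.

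Total expression at each genotype gives a second view of a strain difference, since it uses all reads and not only those over polymorphic sites. Heterozygous embryos had more Kifc1 than B6/B6 embryos, with 21 ± 18.03 RPM (SD, n = 68) against 12.0 ± 10.4 RPM (SD, n = 86). The log2 fold change was 1.16 ± 0.11 (SE, adjusted p = 7.55e-17, edgeR quasi-likelihood with lane as a covariate), and it was 1.15 within B6 x F1 and 1.16 within F1 x B6. 2810025M15Rik had 91.4 ± 73.01 RPM (SD, n = 69) in heterozygotes and 49.3 ± 48.0 RPM (SD, n = 85) in B6/B6 embryos, a log2 fold change of 0.64 ± 0.11 (SE, adjusted p = 7.41e-05). Within 1 backcross it was 0.70 and 0.55 and no longer passed (adjusted p = 0.0994 and 0.0993). The fits called 0.503% of all genes for the genotype at Kifc1 and 0.277% for that at 2810025M15Rik. Each such share, here and for the other genes below, counts genes anywhere in the genome against the genotype at a single gene. The share of genes that pass for their own genotype was not computed. How common such calls are is therefore not shown. The paper reports that nearly all of its eQTL lay close to their target gene.

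The 4 other genes did not pass for their own genotype. The log2 fold changes were 0.031 ± 0.068 (SE, adjusted p = 0.965) for Ccnb2, 0.015 ± 0.13 (SE, adjusted p = 1.00) for Vdac2, 0.0053 ± 0.045 (SE, adjusted p = 0.999) for Rpl7l1 and -0.15 ± 0.11 (SE, adjusted p = 0.945) for Agrn, where the fits called 0.473%, 0.277%, 0.452% and 0.154% of all genes. From these levels a BAF can be computed that uses allele reads only through the genotype calls, as the B6/B6 mean over 2 times the heterozygous mean. It came to 0.286 for Kifc1 and 0.270 for 2810025M15Rik from mean RPM, and to 0.224 and 0.320 from the lane-corrected fold change, beside measured N2 values of 0.253 and 0.383. For the other 4 genes it was 0.437 to 0.569 from mean RPM and 0.489 to 0.556 with the lane correction.

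**Figure D5:**
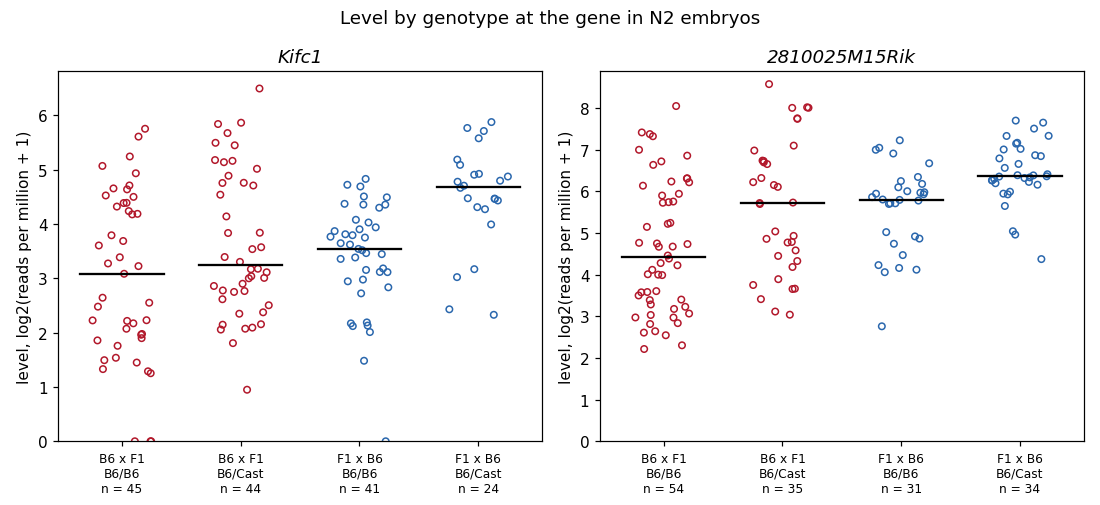
Level of Kifc1 and 2810025M15Rik as log2(RPM + 1) (vertical axis) in N2 embryos by backcross and genotype at the gene, with points for embryos and bars for medians. Heterozygous embryos have the higher median in both backcrosses for both genes, and the ranges of the 2 genotypes overlap in each.

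B6/B6 embryos should carry no Cast allele at the gene, and Cast votes there can come from misassigned reads, a wrong genotype or another sample, which were not told apart. For 5 of the genes they were 0.102% to 0.179% of votes, beside a median of 0.125% over 6758 genes with at least 200 such votes. For Kifc1 they were 1.94% (exact binomial 95% interval 1.19% to 2.99%, counting error only; 19.98 of 1028 votes), above 1% as in 3.67% of genes. One B6 x F1 embryo gave 8.00 of these votes among its 11.5, and without embryos in which Cast votes passed 25% the share was 0.695%. It was 0.234% in flowcell 1 and 3.54% in flowcell 2.

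If reads from a copy elsewhere entered the votes, the BAF could follow the genotype at that other place. A scan over 2245 to 2338 autosomal markers on other chromosomes, done apart in heterozygous and B6/B6 embryos, found no marker for any of the 6 genes after Bonferroni adjustment (quasi-binomial model; the smallest adjusted p was 0.650, for Vdac2 in B6/B6 embryos). At the gene nearest to each copy on another chromosome there were 12 distinct look-ups, since the 3 Ccnb2 copies share their genotypes, and 2 of them passed (Benjamini-Hochberg over the 12, adjusted p = 0.0400 each). Kifc1 BAF in B6/B6 embryos was 0.958 in 39 embryos heterozygous at Cpm, near the copy on chromosome 10, and 0.995 in 43 embryos that were B6/B6 there. Without B6/B6 embryos in which Cast votes passed 25% this call was lost (adjusted p = 0.678). Vdac2 BAF in B6/B6 embryos was 0.9996 in 40 embryos heterozygous at Parm1, near the copy on chromosome 5, and 0.996 in 35 others, so Cast votes were fewer where the copy was heterozygous. With the embryos left out for Kifc1 the Vdac2 votes were the same and the adjusted p was 0.0774. The other 10 look-ups had adjusted p of 0.0580 or more. Kifc5b itself, on the same chromosome as Kifc1, had a BAF of 0.473 in B6 x F1 and 0.389 in F1 x B6 and did not pass (adjusted p = 0.762). A copy on the gene's own chromosome is linked to it and was not covered by the scan.

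The number of votes that reads of a gene gave differed among embryos. Vdac2 gave 9.56 to 18.1 votes per 100 reads in B6 x Cast embryos but 6.89 to 35.9 in Cast x B6 embryos, and Kifc1 43.3 to 52.6 and 18.8 to 69.9. The 2 Cast x B6 embryos with the fewest Vdac2 votes per read had 110 and 100 RPM of it, where the 6 others had 8.13 to 15.9 RPM. The same 2 embryos had the highest Kifc1 levels of their cross, 17.6 and 24.02 RPM against 1.65 to 7.78 RPM. 2810025M15Rik was the steadiest in F1, at 71.4 to 82.1 and 60.6 to 78.9 votes per 100 reads. Agrn had 48.7 to 65.8 and 51.6 to 72.5 in F1. In N2 embryos with at least 50 reads of the gene, Agrn varied more widely. It had 4.76 to 91.8 in B6 x F1 and 6.83 to 93.3 in F1 x B6. Rpl7l1 had 5.53 to 46.8 and 6.08 to 54.6 there. Whether this variation bears on the N2 BAF of Agrn or its relation with level was not tested.

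Levels of the 6 genes varied among N2 lanes. The median Vdac2 level ran from 3.33 RPM in lane H to 129 RPM in lane K, that of Agrn from 41.4 RPM in lane A to 311 RPM in lane G, and that of Rpl7l1 from 59.02 RPM in lane J to 211 RPM in lane E. Between mothers, Agrn was lower in B6 x F1 than in F1 x B6, at 121 ± 88.5 RPM (SD, n = 89) and 229 ± 89.6 RPM (SD, n = 65). Its log2 fold change was -1.01 ± 0.15 (SE, adjusted p = 9.17e-08, edgeR). Rpl7l1 (-0.51 ± 0.10, SE, adjusted p = 3.09e-05) and Vdac2 (-0.77 ± 0.27, SE, adjusted p = 0.0238) were lower in B6 x F1 too. That makes 3 of the 6 genes, where 25.8% of all genes were called and 14.9% were lower in B6 x F1. With lane as a random block none of the 3 passed (limma voom, adjusted p = 0.374, 0.515 and 0.369), nor with counts summed by litter (adjusted p = 0.246, 0.305 and 0.744), and Rpl7l1 had the other sign within flowcell 2 (0.25, adjusted p = 0.0630). Vdac2 also missed the threshold within flowcell 2 (-0.61, adjusted p = 0.178) and with no minimum level (adjusted p = 0.0514). Kifc1, Ccnb2 and 2810025M15Rik did not pass (adjusted p = 0.399, 0.325 and 0.0688), though within flowcell 1 Kifc1 (-0.92, adjusted p = 0.00565) and 2810025M15Rik (-0.86, adjusted p = 0.00163) did and Ccnb2 did with the other sign (0.23, adjusted p = 0.0166). By mother, the mitotic list had 3 of 22 tested genes higher and 5 lower in B6 x F1, the paralogs 0 and 2 of 5, the agrin pathway 2 and 0 of 4, ribosome biogenesis 0 and 3 of 12 and the imprinted list 2 and 4 of 26.

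In F1 embryos 2 of the 6 genes differed in level between crosses, where 29.3% of 9499 genes did. Agrn had 343 ± 71.8 RPM (SD, n = 8) in B6 x Cast and 200 ± 45.0 RPM (SD, n = 8) in Cast x B6, a log2 fold change of 0.72 ± 0.13 (SE, adjusted p = 0.00145, edgeR), and the groups did not overlap (lowest B6 x Cast 289 RPM, highest Cast x B6 259 RPM). Ccnb2 was lower in B6 x Cast, at 143 ± 12.4 RPM against 186 ± 32.3 RPM (SD, n = 8 each; log2 fold change -0.44 ± 0.10, SE, adjusted p = 0.00483, edgeR), but without Cast x B6 litter 1 it did not pass (-0.21, adjusted p = 0.105). Cross and litter share this contrast, and the litters differ in stage.

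Developmental stage, counted as somites, was recorded for 147 of the N2 embryos. None of the 6 genes had a BAF that followed somite number (Spearman, Benjamini-Hochberg over 3342 genes at 0.1, where 0.299% passed). At an unadjusted 0.05 this held for Ccnb2 (rho = -0.24, p = 0.0309, 78 embryos) and Agrn (rho = 0.30, p = 0.0105, 73 embryos), and Ccnb2 passed with the cross regressed out (rho = -0.37, adjusted p = 0.0959) but not with lane regressed out (rho = -0.047, adjusted p = 0.971). Levels of Rpl7l1 (rho = -0.32, adjusted p = 0.00108), 2810025M15Rik (rho = -0.23, adjusted p = 0.0321) and Vdac2 (rho = -0.23, adjusted p = 0.0324) were lower at later stages, 3 of 6 genes where 22.3% of all genes passed and 7.99% were lower. With lane regressed out none of the 3 passed (rho = -0.13, 0.014 and -0.075).

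With lane means removed, the level of each gene was most like that of a few others over 154 N2 embryos, given as a description. The 3 closest to Agrn were Timeless, Usp7 and 1500010J02Rik (Spearman's rho 0.77 to 0.79), and those to 2810025M15Rik were Acad8, Noc4l and Cct5 (0.72 to 0.74). Ccnb2 was closest to Cdca7 (0.73), and Vdac2 to Atr, Bnip3l and Pum2 (0.67 each). For Kifc1 the 3 closest, Nfkbil1, Rsph1 and Glo1 (0.53 to 0.56), all lie on its own chromosome, and for Rpl7l1 they were Diablo, 3200002M19Rik and Cdca3 (0.52 to 0.54).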

How the data were processed

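The authors aligned 3SEQ reads with Bowtie2 to mm9 and to a Cast version of it, and deposited read counts per gene, fractional B6 and Cast allele votes per gene (not whole numbers, so estimated counts) and an N2 genotype code per gene; votes counted only at polymorphic sites away from indels, and F1 reads were trimmed to 1 length, N2 reads only at poly(A) stretches. Each F1 column sums 2 sequencing runs of an embryo. The N2 tables held 8 columns that matched no sample label and 6 matched embryos without genotypes, and neither were used. Counts were scaled to RPM on genes. Allele votes were tested by quasi-binomial models per embryo (dispersion at least 1; at least 20 votes per cross; Python 3.11.15) and by exact binomial tests of rounded votes; levels by edgeR 4.0.16 quasi-likelihood tests with TMM scaling on genes averaging 5 RPM or more, with DESeq2 1.42.0 and limma 3.58.1 voom as alternatives, and Benjamini-Hochberg adjustment. The SE of an edgeR fold change is the fold change over the root of F. The tests were checked on simulated data with independent embryos. For an N2 BAF difference of 0.3 set in 200 of 2000 genes, 86.5% were recovered, with 12 false calls. Smaller BAF differences and litter or lane effects were not simulated. Replicates are embryos; embryos of a litter share a mother. The study's own maternal-effect, imprinting and eQTL corrections (PEER, rank tests) were not applied.

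Named genes are the 6, their 5 tested neighbours on each side, fixed lists, the 3 genes of most like level, the genes next to the F1 threshold, and H13 and Igf2; the 6 genes, lists and rules were chosen with earlier results of these data known. Genomic positions are mm9 with GENCODE vM1 annotation, and copies were found by BLAST. One gene of like level is not reported here.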

Additional observations from a re-analysis of the deposited data

Results flagged for a closer look

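In groups of 8 F1 embryos, 4 values lay farther from the rest of their cross than Dixon's 95% critical value allows, and chance alone flags about 1 in 20 groups. Agrn had a BAF of 0.651 in embryo 3 of Cast x B6 litter 1, and Ccnb2 had 0.384 in the same embryo. Kifc1 had a BAF of 0.403 in embryo 4 of B6 x Cast litter 3, and that embryo also had the highest Vdac2 level of its cross, 77.2 RPM.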

How the results depend on the processing

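No paired analysis was possible because replicate numbers follow the order of the samples and mark no shared animal, litter or day. The count of genes with an N2 BAF difference between crosses was 87 and became 45 with votes summed by litter, 38 by lane, 48 in flowcell 1, 33 in flowcell 2, 169 with somite number as a covariate, 42 with Bonferroni adjustment, and 57 to 260 when 1 lane at a time was left out. Genes with a BAF away from 0.5 fell from 4703 to 3013 in flowcell 2. Genes with over 1% Cast votes in B6/B6 embryos numbered 248, and 147 in flowcell 1. Genes whose BAF followed somite number numbered 10, 2 with lane and 38 with cross regressed out, and genes whose level did numbered 2166, 1125 with lane regressed out and 168 over litter means. Genes that differed by mother numbered 2514, 1 with a lane block (limma voom) and 0 with counts summed by litter (edgeR). Genes that differed between F1 crosses numbered 2785, and 1413 without Cast x B6 litter 1. Look-ups at copies that passed numbered 2, and 0 with all 16 counted or without B6/B6 embryos of over 25% Cast votes. Of the 6 genes 2 passed for their own genotype, and 1 within either backcross alone.

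Signs turned as follows, none past its threshold but the first. Ccnb2 by mother was 0.23 in flowcell 1 and 0.26 in flowcell 2; Rpl7l1 was 0.25 in flowcell 2. The N2 BAF difference of Rpl7l1 was -0.0048 in flowcell 1, -0.0063 with its level as covariate and -0.0072 to 0.026 without single lanes, and that of Kifc1 -0.0014 with its level. With lane regressed out rho of BAF against somites was 0.065 for Vdac2 and -0.14 for Agrn, and rho of level was 0.045 for Ccnb2, 0.15 for Agrn and 0.014 for 2810025M15Rik; Ccnb2 had 0.082 over litter means. F1 log2 fold changes were -0.045 for Kifc1 and -0.029 for Vdac2 without B6 x Cast litter 3, and -0.24 for Kifc1 without Cast x B6 litter 1. By genotype, Rpl7l1 was -0.066 without a lane term, and Ccnb2 -0.024 and Vdac2 -0.16 in F1 x B6 alone. The causes were not tested. The covariate of the gene's own level, the minimum of 1000000 reads leaving out lanes, and both alternatives for the copies were added after seeing the data. N2 embryos with few votes limit BAF per embryo.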
